A study of Sus scrofa with 2 samples.

Results

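The 6 genes described here make hyaluronan, bind it into a matrix or act as its receptor, and they were measured by single-cell RNA sequencing of pig longissimus dorsi, the long muscle of the back. The members are the synthases HAS1 (ENSSSCG00000003239) and HAS2 (ENSSSCG00000005992), the cross-linking proteins TNFAIP6 (ENSSSCG00000023716) and PTX3 (ENSSSCG00000011727), the proteoglycan VCAN (ENSSSCG00000014136) and the receptor CD44 (ENSSSCG00000013297). They were found by name among the 21301 genes of the count matrices, except that HAS2 stands there as SHAS2 and was matched by its identifier. The 6 were proposed with results of these same matrices in view, so their levels are given as a description with no test.

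Hyaluronan is a long sugar polymer that fills the space between cells. HAS enzymes spin it out through the cell membrane from activated sugars, TNFAIP6 (also called TSG-6) links protein heavy chains to it, and PTX3, a pentraxin released in inflammation, binds those chains and so cross-links the polymer, as known from the mouse ovary. VCAN binds the polymer through its link domain, and CD44 is its main receptor on the cell surface. In connective tissue fibroblasts are a chief source of the polymer, and in inflamed tissue it is known for holding leukocytes through CD44.

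The 2 breeds were the Guangdong small-eared spotted pig, GDSS for short, and Yorkshire, with 1 library of piglet cells each, from 1 g of muscle per piglet. The labels call the cells intramuscular vascular stem cells, both titles carry the mark P0, and neither age, sex nor the number of piglets per library was given in the sources used here. There being 1 library for each breed, nothing was replicated or tested, and breed cannot be told apart from animal, preparation or library. Every interval is a 95% interval for counting error only, and is too narrow wherever a few cells hold many of a gene's molecules.

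The deposited matrices held 42093851 UMIs, molecules counted once each by a unique barcode, in 12286 GDSS barcodes and 54300953 UMIs in 14695 Yorkshire barcodes. Filtering left 10649 GDSS cells, of median depth 2882 UMIs, and 12762 Yorkshire cells, of median depth 3005 UMIs. The 2 libraries shared 47 barcodes, 0.383% of the GDSS and 0.320% of the Yorkshire ones. Cells were put into classes by marker genes: 7514 GDSS and 2262 Yorkshire stromal cells, 300 and 3122 satellite cells (muscle stem cells), 319 and 1672 endothelial cells, 225 and 611 mural cells of vessel walls, 434 and 518 glia, and 281 and 118 macrophages. Levels are in CPM, the usual scaling of UMI counts to the total of a class. Markers not used for the gates were highest in their own class, but by little in glia, whose 2 check genes summed to 119 and 132 CPM in glia and 118 and 122 CPM in satellite cells. Yorkshire glia also held stromal check genes at 9915 CPM, against 3682 CPM in GDSS glia, so glia values are also given for clusters.

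Among the synthases, HAS1 was not a stromal gene alone. Over all kept cells it gave 13622 UMIs in GDSS and 9156 UMIs in Yorkshire. Its GDSS level was highest in stromal cells, 446 CPM, followed by endothelial cells at 176, mural cells at 138, satellite cells at 112, glia at 65.7 and macrophages at 17.7 CPM. In Yorkshire mural cells led at 274 CPM, then satellite cells at 255, stromal cells at 205, glia at 99.6, endothelial cells at 26.3 and macrophages at 6.30 CPM. In GDSS endothelial and mural cells, and mural and satellite cells, were not apart beyond counting error, nor were mural and satellite cells in Yorkshire. In Yorkshire mural cells 10 of 611 cells held 47.2% of the HAS1 UMIs, up to 49 in 1 cell. Shares of cells were taken after thinning to 1500 UMIs, and cells with fewer UMIs were left out of every thinned share. That kept 582 of 611 Yorkshire and 164 of 225 GDSS mural cells, and 7068 of 7514 GDSS stromal cells. A HAS1 UMI was found in 12.4% of thinned Yorkshire mural cells, below the 22.0% of satellite and 14.4% of stromal cells. The place of mural cells in that order thus rests on few cells.

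RNA set free in the suspension reaches every droplet, and its part was estimated from the marker genes of the other classes. That estimate for HAS1 was 27.7 CPM in GDSS and 12.1 CPM in Yorkshire satellite cells, 46.7 and 27.0 CPM in mural cells, and 56.4 and 40.4 CPM in glia. Satellite and mural levels thus lay above the estimate in both libraries, while GDSS glia were close to it, and macrophages were at it in GDSS and below it in Yorkshire. After the same thinning, a HAS1 UMI was found in 8.18% of GDSS and 22.0% of Yorkshire satellite cells, against 1.44% and 1.69% of macrophages. Median depths before thinning were 2541 and 3184 UMIs in satellite cells and 6983 and 8462 UMIs in macrophages.

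The GDSS endothelial value rested on few cells. In joint clustering, done without the 6 members, cluster 6 held endothelial and mural markers together. Without that cluster endothelial HAS1 stood at 81.5 CPM in GDSS, against 16.4 CPM in Yorkshire. With it the GDSS value was 6.70-fold (5.63 to 7.98) that of Yorkshire.

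Within satellite cells HAS1 varied widely between clusters. Cluster 19, led by POPDC3 and ANKRD1 among others, had 298 CPM in GDSS and 406 CPM in Yorkshire. Cluster 9, with MYOD1 and MYF5 among its leading genes, had 274 and 251 CPM, and cluster 8, with TAGLN3 and FGFR4, had 27.1 and 51.6 CPM. In GDSS cluster 19 was 11.002-fold (6.93 to 18.3) above cluster 8, and in Yorkshire 7.86-fold (6.92 to 8.96). CD44 was also high in cluster 19, at 37.0 and 49.1 CPM, but low in both others, at 4.36 and 11.03 CPM in cluster 9 and 3.87 and 3.28 CPM in cluster 8. VCAN varied less, at 109 and 103 CPM in cluster 19 and 71.0 and 91.3 CPM in cluster 8. Cluster 19 held 1.98% of all kept GDSS and 27.0% of all kept Yorkshire cells, gated or not. The lower HAS1 level of GDSS satellite cells as a class, 112 against 255 CPM, may thus also compare unlike mixtures of clusters. The split of the gated class by cluster is not given here.

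HAS2, the synthase that mouse embryos need, was found in a narrower range of cells. It gave 850 UMIs in GDSS and 277 UMIs in Yorkshire. Glia had 57.5 CPM in GDSS and 19.1 CPM in Yorkshire, and stromal cells had 25.9 and 17.5 CPM. Satellite cells had 3.37 and 0.992 CPM, from 3 and 11 UMIs, and endothelial cells 1.62 and 0.595 CPM, from 3 and 5 UMIs. Mural cells stood at 1.69 CPM in GDSS (1 UMI) and 6.78 CPM in Yorkshire (14 UMIs). Thinned shares were 7.63% of GDSS and 1.85% of Yorkshire glia and 2.90% and 2.48% of stromal cells, against 0% of GDSS and 0.0660% of Yorkshire endothelial cells, whose median depths were 3528 and 3198 UMIs. The third enzyme of the family, HAS3, had 0 UMIs in stromal cells of both libraries.

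**Figure D1:**
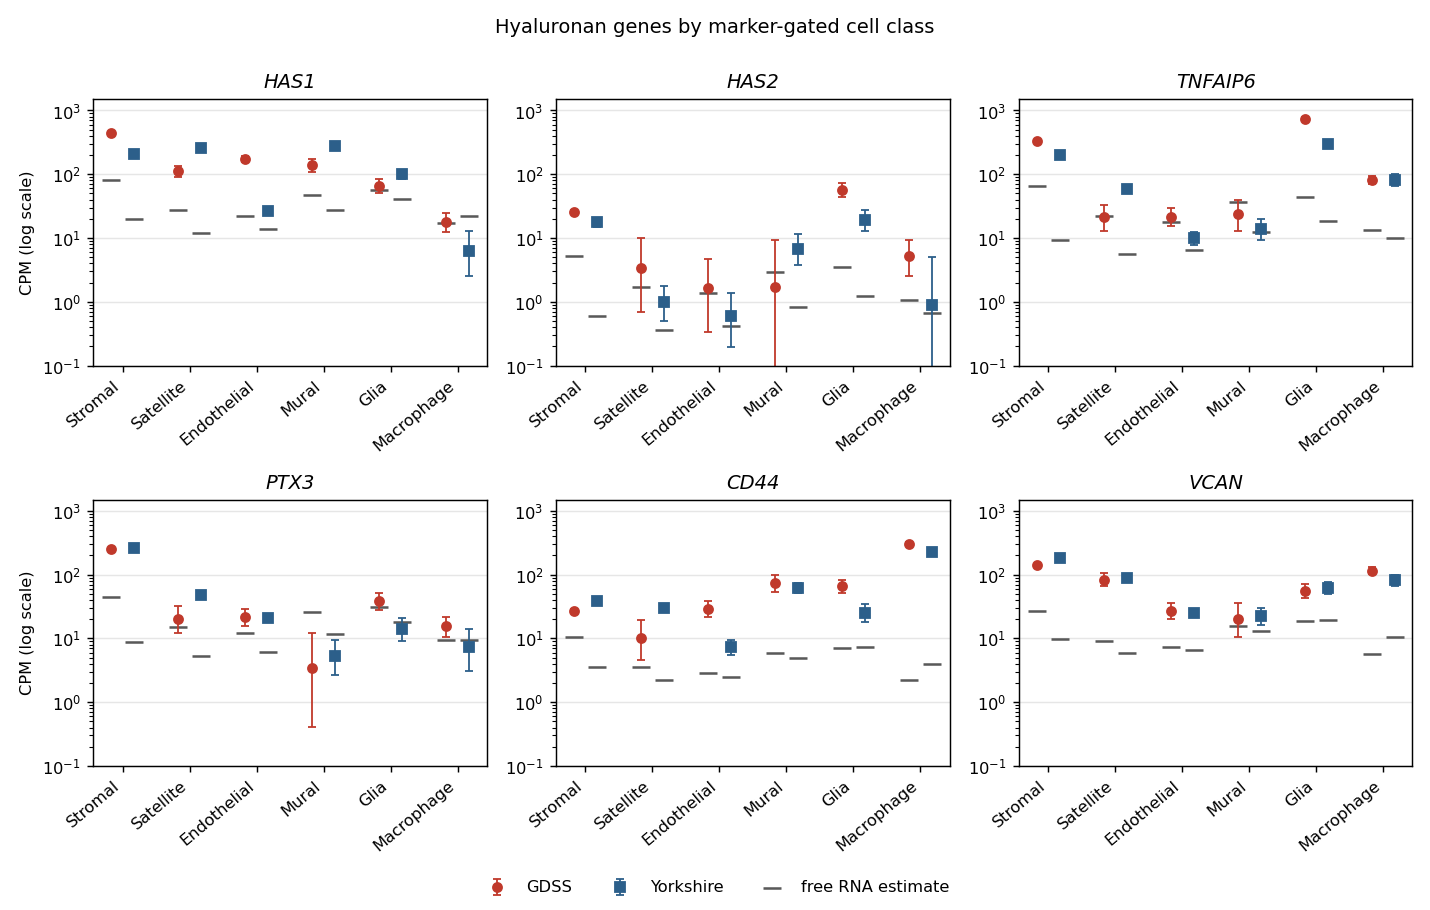
Level of each gene in CPM (log scale) by marker-gated cell class, GDSS as red circles left of Yorkshire as blue squares, with exact Poisson intervals, and the free RNA estimate as grey bars. HAS1 lies above the grey bars in stromal, satellite and mural cells of both libraries, TNFAIP6 is highest in glia at 737 and 297 CPM, PTX3 in stromal cells at 251 and 257 CPM, and CD44 in macrophages at 306 and 223 CPM.

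TNFAIP6 was highest in glia. Glia had 737 CPM in GDSS and 297 CPM in Yorkshire, and stromal cells 331 and 203 CPM. Macrophages followed at 80.8 and 81.1 CPM, but 10 cells held 56.6% and 73.3% of those UMIs. Satellite cells had 21.4 and 58.9 CPM, mural cells 23.6 and 14.0 CPM, and endothelial cells 21.6 and 9.89 CPM, against free RNA estimates of 21.8 and 5.61, 36.8 and 12.5, and 17.6 and 6.38 CPM. After thinning, 54.8% of GDSS and 30.2% of Yorkshire glia had a TNFAIP6 UMI, against 3.40% and 0.990% of endothelial cells. Median depths of glia were 2100 and 2761 UMIs.

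The glial signal was split between 2 clusters. Cluster 11, led by CDH19, APOA1, CCK and XKR4, had 884 and 510.3 CPM of TNFAIP6 in its GDSS and Yorkshire cells. Cluster 12, with MBP and PRX, genes of the myelin sheath, among its leading genes, had 262 and 168 CPM. Cluster 11 was 3.38-fold (2.48 to 4.70) above cluster 12 in GDSS and 3.03-fold (2.38 to 3.91) in Yorkshire. HAS2 divided the same way, at 66.1 and 57.4 CPM in cluster 11 and 12.2 and 2.03 CPM in cluster 12, from 2 and 1 UMIs in the last. Both genes were thus higher in the non-myelin cluster of each library.

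The breed contrast in glia depended on how glia were chosen. By the gate TNFAIP6 was 2.48-fold (2.21 to 2.78) higher in GDSS and HAS2 3.01-fold (1.93 to 4.80). In cluster 11 TNFAIP6 was 1.73-fold (1.52 to 1.97) higher and HAS2 1.15-fold (0.755 to 1.78). HAS1 turned round: by the gate GDSS had 65.7 CPM and Yorkshire 99.6 CPM, but in cluster 11 GDSS had 54.5 CPM (52 UMIs) and Yorkshire 20.2 CPM (13 UMIs). Both cluster 11 values lay below the free RNA estimates for HAS1 in gated glia, 56.4 and 40.4 CPM, and no such estimate was made for clusters. The part of free RNA in this contrast was not tested. Of the 4 members with at least 100 UMIs in glia, TNFAIP6 and CD44 were at least 1.5-fold higher in GDSS by the gate, beside 9.24% of all genes measured there, and HAS1 was higher in Yorkshire by the gate, beside 16.1%. HAS2 and PTX3 stayed below 100 UMIs in glia.

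PTX3 was the member with the clearest stromal pattern. Stromal cells had 251 CPM in GDSS and 257 CPM in Yorkshire. Satellite cells had 20.2 and 48.4 CPM, endothelial cells 21.6 and 20.8 CPM, glia 38.3 and 14.1 CPM, and macrophages 15.4 and 7.21 CPM. Mural cells had 3.38 and 5.33 CPM, below their free RNA estimates of 25.6 and 11.9 CPM. After thinning, 15.7% of GDSS and 15.04% of Yorkshire stromal cells had a PTX3 UMI, against 0% and 0.344% of mural cells, whose median depths were 2119 and 3135 UMIs and those of stromal cells 3060 and 3636 UMIs. Outside the stroma, cluster 14, with the lymphatic vessel genes CCL21 and LYVE1 among its leading genes, had 137 PTX3 UMIs or 336 CPM in its 57 Yorkshire cells and 15 UMIs or 147 CPM in its 14 GDSS cells.

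VCAN was spread more evenly. Stromal cells had 139 CPM in GDSS and 182 CPM in Yorkshire, macrophages 115 and 81.1 CPM, satellite cells 83.2 and 89.8 CPM, and glia 55.6 and 62.1 CPM. Endothelial cells, at 27.0 and 24.9 CPM, and mural cells, at 20.3 and 22.3 CPM, were lowest. In macrophages 10 cells held 64.4% of the GDSS and 77.8% of the Yorkshire VCAN UMIs. A VCAN UMI was found in 15.3% and 20.5% of thinned stromal cells and in 11.5% and 10.9% of satellite cells, against 1.83% and 3.09% of mural cells.

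The receptor CD44 was highest in macrophages, with 306 and 223 CPM in GDSS and Yorkshire. Mural cells followed with 74.3 and 62.0 CPM. Stromal cells, where the other members were high, had 26.7 and 39.0 CPM, satellite cells 10.1 and 29.7 CPM, glia 66.6 and 25.2 CPM and endothelial cells 29.1 and 7.26 CPM. A CD44 UMI was found in 30.2% and 29.7% of thinned macrophages, against 2.96% and 4.95% of stromal cells. Mural cells lay between them at 12.2% and 7.56%.

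The breeds were compared directly in stromal cells, which held 87.4% of the HAS1 UMIs of GDSS and 21.9% of those of Yorkshire. They also held 26716311 of the 37781742 kept GDSS UMIs of all genes and 9752413 of the 47319884 Yorkshire ones. Their HAS1 level was 446 CPM in GDSS, against 361 CPM over all kept cells, and 205 against 193 CPM in Yorkshire. Ungated cells held 8.03% of the HAS1 UMIs of GDSS, at 244 CPM. In Yorkshire they held 36.8%, more than any gated class, at 254 CPM. In GDSS over Yorkshire stromal cells HAS1 was 2.17-fold (2.07 to 2.28), HAS2 1.48-fold (1.25 to 1.76), TNFAIP6 1.63-fold (1.56 to 1.72) and PTX3 0.975-fold (0.931 to 1.02). CD44 was 1.46-fold (1.29 to 1.66) and VCAN 1.31-fold (1.24 to 1.38) higher in Yorkshire. So 2 of the 6 members, HAS1 and TNFAIP6, passed 1.5-fold in favour of GDSS and 0 in favour of Yorkshire, beside 5.85% and 17.4% of the 10047 genes with at least 100 UMIs. At 2-fold HAS1 alone passed in favour of GDSS, beside 2.01% of genes. The members' median log2 ratio was 0.26, and that of all genes −0.16. PTX3 was nominally higher in GDSS under 2 other scalings, with log2 ratios of 0.18 and 0.20, while the other 5 kept their direction.

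A large part of the HAS1, HAS2 and TNFAIP6 UMIs of GDSS lay in a single group of stromal cells. Sub-cluster 2, with PLAU, CCL2 and CXCL2 among its leading genes, held 17.7% of GDSS stromal cells and 2.34% of Yorkshire ones, and it was found without the 6 members. It had 56.1% of the stromal HAS1 UMIs in GDSS and 13.0% in Yorkshire, 41.7% and 9.91% of those of TNFAIP6, and 45.4% and 1.17% of those of HAS2. Without it HAS1 was 1.35-fold, TNFAIP6 1.30-fold and HAS2 1.00-fold in GDSS over Yorkshire, and 0 members passed 1.5-fold in favour of GDSS. Weighting equally the 8 sub-clusters with at least 50 cells in each library gave 1.32-fold for HAS1.

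**Figure D2:**
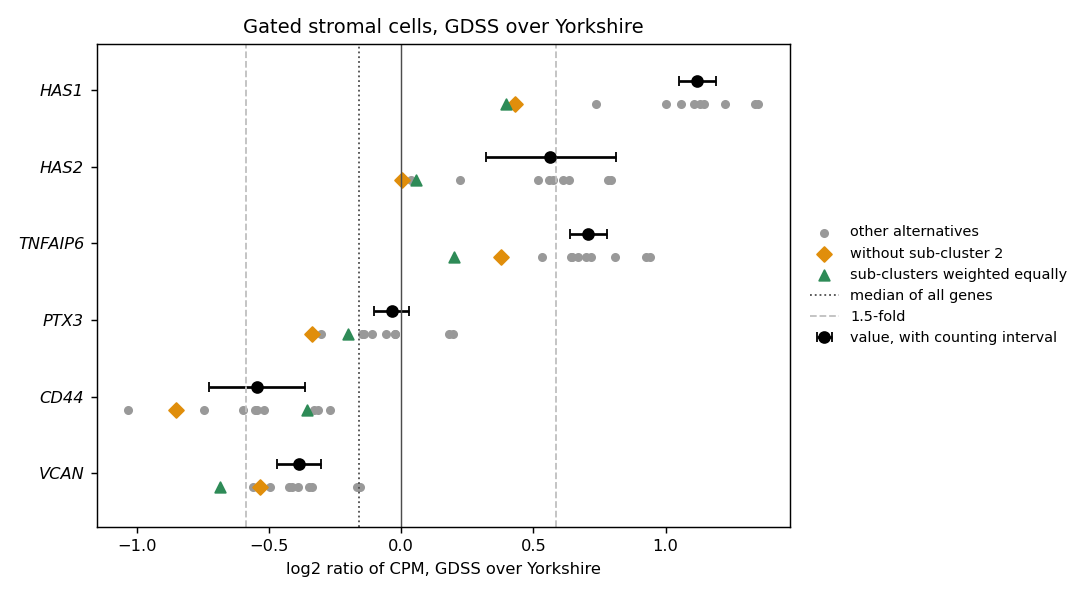
Log2 ratio of GDSS over Yorkshire CPM in gated stromal cells, as black points with exact counting intervals, above the values under the alternative settings. HAS1 moves from 1.12 to 0.43 without sub-cluster 2 (orange) and to 0.40 with sub-clusters weighted equally (green), both short of the dashed line at 1.5-fold, while CD44 and VCAN lie left of 0 throughout.

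Inside sub-cluster 2 HAS1, TNFAIP6 and PTX3 were above their stromal levels in both breeds. HAS1 reached 1168 CPM in its 1333 GDSS cells and 784 CPM in its 53 Yorkshire cells, and a HAS1 UMI was found in 58.0% and 48.1% of them after thinning. TNFAIP6 had 645 and 589 CPM and PTX3 439.6 and 397 CPM. In Yorkshire 10 of the 53 cells held 65.5% of its HAS1 and 87.1% of its PTX3 UMIs. HAS2 differed, at 54.9 CPM in GDSS and 6.01 CPM, or 2 UMIs, in Yorkshire. CD44 had 44.4 CPM there in GDSS and 27.0 CPM (9 UMIs) in Yorkshire, and VCAN 188 and 174 CPM, in Yorkshire both under the stromal levels of 39.0 and 182 CPM.

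The opposite end was sub-cluster 5, led by FMO1 and IMPA2, together with sub-cluster 8, whose leading genes COMP, TNMD and COL2A1 belong to tendon and cartilage. In sub-cluster 5 HAS1 had 10.5 CPM in GDSS and 21.2 CPM in Yorkshire, and in sub-cluster 8 it had 26.4 and 43.6 CPM. Sub-cluster 2 was thus 111-fold (64.7 to 208) above sub-cluster 5 in GDSS and 37.0-fold (26.3 to 53.5) in Yorkshire. VCAN did not share the low level of HAS1 in sub-cluster 5, where it had 128 and 186 CPM, against 60.6 and 57.5 CPM in sub-cluster 8.

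PTX3 and VCAN were further apart between the breeds in some sub-clusters than in the stromal total, though not in all. In sub-cluster 5 PTX3 had 45.4 CPM in GDSS and 270.3 CPM in Yorkshire, 5.95-fold (4.51 to 7.997) higher in Yorkshire. In sub-cluster 3, led by FBLN2, CCL26 and PI16, PTX3 had 286 and 539 CPM and VCAN 175 and 359 CPM. In sub-cluster 7, led by SFRP4, HHIP and ART4, VCAN had 75.0 and 342 CPM, 4.56-fold (3.35 to 6.24) higher in Yorkshire. Sub-cluster 1, led by FMO1 and AOX1, had the highest PTX3 level of Yorkshire at 588 CPM in 436 cells, and held 17 cells in GDSS. The direction differed elsewhere. PTX3 had 44.3 CPM in GDSS and 20.2 CPM in Yorkshire in sub-cluster 8, and 54.9 and 42.0 CPM in sub-cluster 0. VCAN was close in both, at 60.6 and 57.5 CPM in sub-cluster 8 and 121 and 131 CPM in sub-cluster 0.

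**Figure D3:**
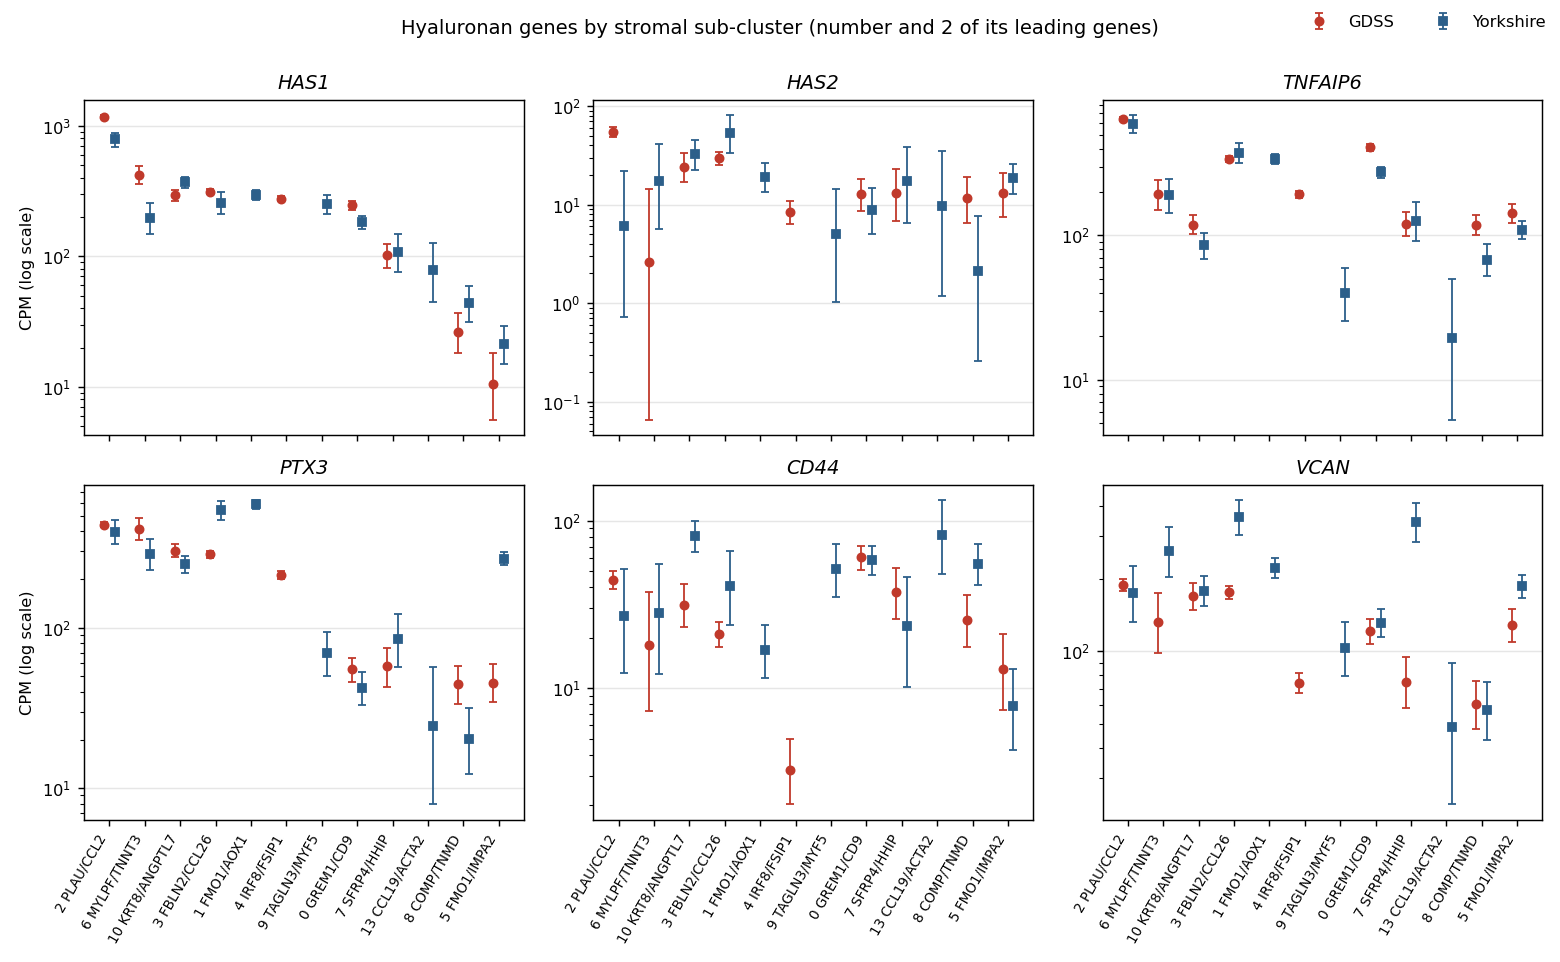
Level of each gene in CPM (log scale) in the stromal sub-clusters with at least 50 cells in a library, ordered by HAS1, GDSS as red circles and Yorkshire as blue squares, with exact Poisson intervals. HAS1 spans 10.5 to 1168 CPM in GDSS and 21.2 to 784 CPM in Yorkshire, and PTX3 in sub-cluster 5 has 45.4 CPM in GDSS and 270.3 CPM in Yorkshire.

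Stromal states defined by gene pairs gave a view that needs no clustering. They left out 3167 of 7514 GDSS and 831 of 2262 Yorkshire stromal cells, which had no state and had HAS1 at 432 and 211 CPM. The state with PI16 and CCL26 had the highest HAS1 level in GDSS, 604 CPM, against 224 CPM in Yorkshire. In the mouse, PI16 is a gene of the fibroblasts that line vessels and fascia. HAS2 in this state had 34.3 and 39.7 CPM, TNFAIP6 389 and 268 CPM, PTX3 380.5 and 482 CPM, and VCAN 187 and 329.7 CPM. These were nominally the highest levels of the gated states for all 5 genes in both libraries except HAS1 in Yorkshire, where the CLDN1 and ITGB4 state had 246 CPM and the THBS4 and KERA state 237 CPM. The first places of TNFAIP6 in GDSS, of HAS2 and PTX3 in Yorkshire, and the order of the 3 HAS1 values in Yorkshire, were not apart beyond counting error. VCAN in the PI16 and CCL26 state was 1.76-fold (1.60 to 1.93) higher in Yorkshire.

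The state with TNMD and SCX, genes of tendon cells, was lowest for most members. It had 12.007 and 12.9 CPM of HAS1 in GDSS and Yorkshire, 104 and 62.4 CPM of TNFAIP6, 32.4 and 17.2 CPM of PTX3, and 43.2 and 62.4 CPM of VCAN. HAS2 gave 4 UMIs in the GDSS cells of that state and 0 in the Yorkshire cells. CD44 was the exception, at 21.6 and 47.3 CPM, higher than in the MME and FMO2 state at 11.1 and 11.9 CPM. The CLDN1 and ITGB4 state gave the widest gap between breeds for CD44, 8.91 CPM from 4 UMIs in GDSS and 82.7 CPM from 39 UMIs in Yorkshire. In Yorkshire 10 of its 83 cells held 82.1% of those UMIs, and after thinning 2 GDSS cells (1.61%) and 5 Yorkshire cells (6.10%) had one.

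Most stromal cells showed at most 1 member at this depth. Of the thinned cells, 40.9% in GDSS and 47.3% in Yorkshire had no UMI of any member, and 35.3% and 34.9% had 1 member. A further 17.3% and 13.7% had 2 members, 5.65% and 3.26% had 3, and 0 had all 6. The UMIs were concentrated in few cells. The 751 GDSS and 226 Yorkshire stromal cells with the most UMIs of a gene, 10% of each library, held 69.7% and 80.7% of its UMIs for HAS1, 81.2% and 83.2% for PTX3, and 58.7% and 65.5% for TNFAIP6. The highest cell had 103 and 45 HAS1 UMIs.

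Within the stromal cells of each library, HAS1 went with the cross-linking genes, though not with these alone. In cells with a HAS1 UMI, 38.1% (35.9 to 40.4) of GDSS and 30.3% (25.2 to 35.7) of Yorkshire cells had TNFAIP6, against 24.8% and 16.1% of cells with none. For PTX3 the shares were 22.9% and 22.3% with HAS1 and 13.3% and 13.8% without. VCAN was less far apart, at 18.0% and 24.5% with HAS1 and 14.4% and 19.9% without. HAS2 had 4.15% and 5.10% with HAS1 and 2.47% and 2.04% without. CD44 had 4.70% and 6.69% with HAS1 and 2.36% and 4.66% without, with overlapping intervals in Yorkshire. The chemokine gene CXCL2, which is no member, was found in 38.1% and 37.6% with HAS1 and in 19.4% and 19.3% without. IL6, also no member, had 4.81% and 4.46% with HAS1 and 2.53% and 1.61% without. Outside sub-cluster 2 TNFAIP6 was found in 31.8% and 29.1% of cells with HAS1 and 22.5% and 15.6% of cells without, the same direction as over all stromal cells. VCAN in GDSS then had 13.9% with HAS1 and 14.1% without, and HAS2 in GDSS 2.59% and 2.04%, with overlapping intervals. In glia the pairing could not be judged, because HAS1 was close to its free RNA estimate in GDSS and found in few cells. HAS1 was found in 4.48% of GDSS and 4.76% of Yorkshire glia with TNFAIP6 (9 and 7 cells). In glia without TNFAIP6 the shares were 4.22% and 9.41% (7 and 32 cells), with overlapping intervals. In Yorkshire satellite cells TNFAIP6 was found in 9.59% of cells with HAS1 and 5.96% without, while PTX3, at 4.42% and 3.58%, had overlapping intervals.

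**Figure D4:**
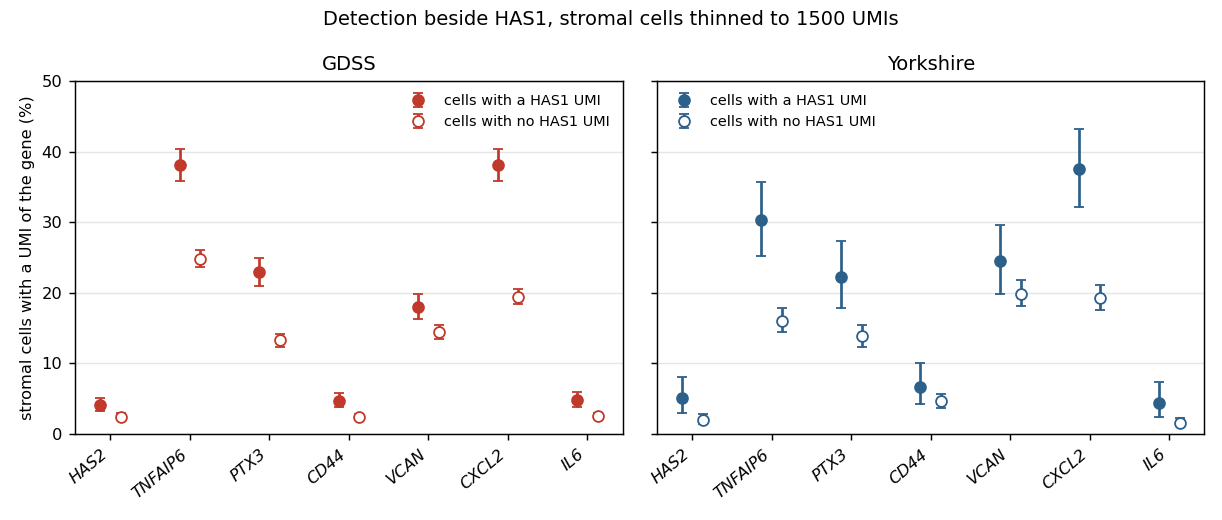
Share of stromal cells with a UMI of each gene, in percent, among cells with a HAS1 UMI (filled) and with none (open), after thinning to 1500 UMIs, GDSS left and Yorkshire right, with exact Clopper-Pearson intervals. HAS2, TNFAIP6, PTX3, CXCL2 and IL6 are found more often beside HAS1 in both libraries with intervals apart, TNFAIP6 at 38.1% against 24.8% in GDSS.

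Other genes of the pathway went both ways between the breeds in stromal cells. Of 38 genes listed, 34 were in the matrices and 18 were measured with at least 100 UMIs, and their median log2 ratio was 0.09. At 1.5-fold 3 of the 18 were higher in GDSS and 2 in Yorkshire, beside 5.85% and 17.4% of all genes. LAYN, a hyaluronan receptor, had 21.5 CPM in GDSS and 6.46 CPM in Yorkshire, 3.33-fold (2.57 to 4.39) higher in GDSS. HAPLN3, a link protein, was 1.85-fold (1.37 to 2.54) and the hyaluronidase HYAL2 1.54-fold higher in GDSS. ITIH4, a relative of the heavy chains, had 8.08 and 49.0 CPM, and the innate receptor TLR2 2.96 and 5.23 CPM, both higher in Yorkshire. ITIH4 had 4836 CPM in GDSS and 7767 CPM in Yorkshire mural cells, and mural check genes summed to 518 and 517 CPM in stromal cells. Their part in the stromal ITIH4 gap was not tested. The other 13 were within 1.5-fold.

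The genes that make the sugar precursors were measured on both sides at close levels. UGDH, which makes UDP-glucuronic acid, had 146 CPM in GDSS and 137 CPM in Yorkshire stromal cells. UGP2 had 98.6 and 109 CPM and GFPT2, which feeds the amino sugar branch, 86.2 and 93.1 CPM. For all 3 the stromal level was above that of satellite and endothelial cells in both libraries, 46.1 and 64.0 CPM for UGDH in satellite cells.

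Other parts of the pathway lay in other classes, chosen here after their values were seen. The hyaluronidase HYAL2 had 99.2 CPM in GDSS and 120.05 CPM in Yorkshire endothelial cells, against 20.7 and 13.4 CPM in stromal cells. The receptors LYVE1, at 418 and 768 CPM, and STAB1, at 431 and 419.7 CPM, were high in macrophages, as was CD44, and LYVE1 had 48.5 and 105 CPM in endothelial cells. ITIH5, another heavy chain relative, had 2221 and 1388 CPM in glia, the class with the highest TNFAIP6, and 196 and 143 CPM in stromal cells. ITIH1, ITIH2, ITIH3 and AMBP, whose products form the serum inhibitor that TNFAIP6 takes heavy chains from, gave at most 4 UMIs each in stromal cells of a library.

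In stromal cells genes of inflammation and of handling stress were higher in GDSS alongside HAS1 and TNFAIP6. There 8 of 13 measured inflammation genes passed 1.5-fold in favour of GDSS and 0 in favour of Yorkshire, beside 5.85% and 17.4% of all genes; the median log2 ratio was 0.80. CXCL8 was 7.75-fold, ICAM1 4.06-fold, CXCL2 2.73-fold and ZFP36 2.23-fold higher in GDSS. Of 10 stress genes measured, 5 passed in favour of GDSS and 0 in favour of Yorkshire; the median was 0.78. They were led by DNAJB1 at 3.44-fold, HSPH1 at 2.69-fold, HSPA8 at 2.38-fold and EGR1 at 2.06-fold. Their part in the HAS1 and TNFAIP6 contrast was not tested. Sub-clusters 2 and 4 of GDSS, where HAS1 had 1168 and 276 CPM, had DNAJB1 at 3362 and 8958 CPM, HSPH1 at 2941 and 2695 CPM and CXCL2 at 3194 and 346 CPM. In other classes the median log2 ratio of the stress list is given first and that of the measured members second. It was 0.26 and −1.26 (5 members) in satellite cells and −0.05 and 1.13 (5 members) in endothelial cells. Mural cells had 0.69 and −0.36 (2 members), glia −0.04 and 0.58 (4 members), and macrophages −0.85 and 0.46 (3 members).

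The other classes differed in direction. Among satellite cells 4 of 5 measured members, HAS1, TNFAIP6, PTX3 and CD44, were at least 1.5-fold higher in Yorkshire, beside 20.7% of genes. These cells too may come from unlike mixtures of clusters. Within the joint clusters, which include ungated cells, some gaps between GDSS and Yorkshire were smaller. HAS1 in cluster 9 was close, at 274 and 251 CPM (126 and 1185 UMIs). CD44 in cluster 8 was close too, at 3.87 and 3.28 CPM, from only 3 and 16 UMIs. HAS1 had 27.1 and 51.6 CPM in cluster 8 and 298 and 406 CPM in cluster 19. CD44 had 37.0 and 49.1 CPM in cluster 19 and 4.36 and 11.03 CPM in cluster 9. PTX3 had 15.5 and 15.2 CPM in cluster 8, 37.0 and 83.1 CPM in cluster 9 and 30.9 and 52.5 CPM in cluster 19. In cluster 9 TNFAIP6 had 28.3 and 55.1 CPM. TNFAIP6 had 28.8 and 85.3 CPM in cluster 19 but 20.7 and 22.5 CPM in cluster 8, and its GDSS class level of 21.4 CPM was at the free RNA estimate of 21.8 CPM. Among endothelial cells HAS1, TNFAIP6 and CD44 of 5 measured were higher in GDSS, beside 12.4% of genes. The 3 mural check genes summed to 1499 CPM in GDSS and 338 CPM in Yorkshire endothelial cells, and their part in these gaps was not tested. In cluster 16, the main endothelial cluster, HAS1 had 40.8 and 18.6 CPM, and CD44 15.5 and 7.16 CPM, a CD44 ratio of 2.16-fold (0.994 to 4.33). TNFAIP6, at 21.6 and 9.89 CPM, was close to its free RNA estimates of 17.6 and 6.38 CPM. Of 2 measured in mural cells HAS1 was 1.98-fold (1.57 to 2.53) higher in Yorkshire by the gate, beside 15.2% of genes. In cluster 17, the main mural cluster, HAS1 had 196 CPM in GDSS and 282 CPM in Yorkshire. In macrophages 3 members were measured, and 0 were 1.5-fold apart, beside 25.9% of genes.

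Genes with the most similar pattern were sought over 23 units, the classes and stromal states of each library with at least 50 cells. The measure was Pearson's r of log2(CPM + 1) over 10145 genes, given with no p because the units share library, depth and free RNA. HAS1 was most like SULF1 (0.92), CAMK2N1 (0.91) and OSR2 (0.90), and HAS2 like TMTC4 (0.86), P3H2 (0.84) and CHL1 (0.84). TNFAIP6 was most like PLOD3 (0.91), TENT5A (0.88) and BMPER (0.86), and PTX3 like NID1 (0.95), the gate gene PDGFRA (0.92) and PLAGL1 (0.91). CD44 was most like PGAM1 (0.83), GLIPR1 (0.82) and CSGALNACT2 (0.81), and VCAN like CBR3 (0.90), PI4K2B (0.88) and COLEC12 (0.87). Among the members PTX3 and VCAN were closest at 0.81, followed by HAS2 and TNFAIP6 at 0.77, while HAS1 and TNFAIP6 had 0.28.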

How the data were processed

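The authors deposited raw UMI counts per gene and barcode. The submitters' processing notes name Cell Ranger and R 3.5.2, and the matrix headers give software 3.1.0. No genome build or annotation was given in the sources used here. The kit was 10x Genomics v2, per the labels' protocols. Barcodes were kept with at least 500 genes and at most 10% mitochondrial UMIs, and those with a scrublet score of at least 0.3 were taken out as doublets (473 GDSS, 1061 Yorkshire). Every deposited barcode had at least 500 UMIs.

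A cell was put into a class with at least 2 gate genes detected and more than of any other class. That placed 85.2% of GDSS and 65.1% of Yorkshire cells, and the rest stayed ungated. Of the listed marker genes SCARA5, S100B, S100A9, CPA3 and HBA1 were not found by name and were not used here. A stromal state needed at least 2 UMIs of its gene pair. Leiden clusters (resolution 1.0, and 0.5 within stromal cells; 2000 variable genes, 30 components, 15 neighbours, no batch correction) left out the 6 members. Leading genes define a cluster and are not results.

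Counts were summed per class and library and scaled to CPM, with exact Poisson intervals. Ratios carry exact conditional binomial intervals and shares Clopper-Pearson intervals, at 95%. Free RNA was taken as the median, over marker genes of other classes, of the level in a class over that in all cells, times the member's level in all cells. A gene entered counts if the 2 summed classes gave it 100 UMIs or more. Only the ratios with their intervals and the thinning were tested on simulated data, whose counts had no uneven spread between cells. The tools were Python 3.11.15, scanpy 1.11.5, scipy 1.17.1 and R 4.3.3 with edgeR 4.0.16 and DESeq2 1.42.0, which gave scaling factors only. Alternatives covered scaling, gates, doublets, mitochondrial UMIs, thinning and weights of states.

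The members and lists were chosen with earlier results of these data known. Named are all members, up to 4 genes per list with the largest stromal ratio, and the 3 genes most like each member; any other gene named was chosen after its values were seen.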

Additional observations from a re-analysis of the deposited data

How the results depend on the processing

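The count of members at least 1.5-fold higher in GDSS stromal cells, 2, fell to 0 with equal weight per stromal sub-cluster, to 0 without sub-cluster 2, both chosen after seeing the data, and to 1 at 2-fold. It rose to 3 with TMM, with size factors and with doublets kept. HAS2 passed 1.5-fold in favour of GDSS in 4 of 11 alternatives, TNFAIP6 in 8 and HAS1 in 9. The count higher in Yorkshire, 0, became 1 with doublets kept, with equal weight per stromal state or sub-cluster, without sub-cluster 2, and after thinning to 1500 UMIs. Over 11 alternatives the stromal log2 ratio of HAS1 ran from 0.40 to 1.35, of HAS2 from 0.00 to 0.79, of TNFAIP6 from 0.20 to 0.94, of PTX3 from −0.34 to 0.20, of CD44 from −1.03 to −0.27 and of VCAN from −0.69 to −0.15. The cause of these shifts was not tested. TMM and size factors moved the median of all genes to 0.06 and 0.07. Of 156 alternative class levels 40 moved beyond their counting interval and 116 did not. No paired analysis was possible because each breed had 1 library and the labels give no replicate numbers. Depth limits HAS2 most, with under 100 UMIs in every class but stromal cells.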
